A study of Mus musculus with 6 samples.

Results

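The 9 genes described here are classical genes of the astrocyte membrane, cytoskeleton and metabolism: Slc1a2, Slc1a3, Slc4a4, Aqp4, Gja1, Gfap, Aldoc, Plpp3 and Gpc5. They were chosen by name, as well-known astrocyte genes, out of 19905 genes in the droplet table, with earlier results of these data known. The droplet table gave values for all 9, and the bulk and plate tables for 8, because Gfap was not analysed there.

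Astrocytes take up the glutamate that neurons release, and this uptake runs mainly through the transporters GLT-1 (Slc1a2) and GLAST (Slc1a3). They buffer potassium, bicarbonate and water through membrane channels and carriers placed around vessels and synapses, and they are joined to each other by gap junctions. The intermediate filament protein GFAP marks them in the hippocampus, in white matter and after injury, and is low in most healthy cortical astrocytes. Slc1a3 is strong in Bergmann glia, the astrocytes of the cerebellar cortex, and the Aldoc protein is also an antigen of Purkinje cells, whereas Slc1a2 is strongest in the forebrain.

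The study profiled nuclei from scrolls, 50 µm thick, of formalin-fixed, paraffin-embedded (FFPE) brain of C57BL/6J mice aged 8 to 12 weeks, all labelled as cortex. Paraffin was removed with heated mineral oil, with heated xylene or with xylene at room temperature. Pools of sorted nuclei were sequenced by SCRB-seq, which counts 3′ ends, and by SMART-Seq2, which covers whole transcripts. Single nuclei were sequenced by SMART-Seq2 in plates and in droplets on the 10x platform. Frozen nuclei stand beside the FFPE nuclei in the bulk tables and in the table of the whole series, as the authors' annotation names them; the sources used here do not describe their preparation. The 2 bulk assays and the droplet assay are 1 GEO sample each and the plates are 3, 1 for each batch, of which the third was not used here. No label names an animal, so the p-values below measure the spread between wells, which may be technical.

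The SCRB-seq table held 64 wells: 16 of each paraffin removal method and 16 frozen, with 8 of 10 nuclei and 8 of 100 nuclei in each 16. Their mouse counts ranged from 7512 to 167144 per well. The SMART-Seq2 bulk table held 12 wells, 1 of 10, 1 of 50 and 1 of 100 nuclei for each method and for frozen nuclei, with 270363 to 942966 counts. Levels are given as counts-per-million values (CPM) of the well's own mouse counts.

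Genes that mark cells of the cerebellum and of the telencephalon stood at different levels in FFPE and frozen wells. Of 6 genes of cerebellar granule neurons, 5 were measured in SCRB-seq, and their summed level was 0 to 34.3 CPM in the frozen wells and 250 to 5121 CPM in the FFPE wells. Gabra6 and Cbln3 had 0 counts in all frozen SCRB-seq wells. In SMART-Seq2 the sum was 0 to 1.12 CPM in frozen wells and 1015 to 3340 CPM in FFPE wells, and 4 of the 5 genes had no frozen counts (Gabra6, Cbln1, Cbln3 and Zic1). Genes of the telencephalon (6 of 6 measured) went the other way in SMART-Seq2, with 411 to 572 CPM in frozen wells and 1.95 to 196 CPM in FFPE wells. In SCRB-seq their ranges overlapped, with a median of 352 CPM in frozen wells and 134 CPM in FFPE wells. Of 5 Bergmann glia genes 4 were measured, and their summed level in SCRB-seq was 40.4 to 270 CPM in frozen wells (median 106) and 54.8 to 1356 CPM in FFPE wells (median 316). In SMART-Seq2 the FFPE wells lay on both sides of the frozen ones, at 2.03 to 566 CPM against 65.1 to 114 CPM. In every FFPE against frozen comparison below, fixation and the brain region in the tube therefore cannot be told apart. In bulk wells, fewer cells of a type and less RNA per cell cannot be told apart either.

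Among the glutamate transporters, Slc1a3 was higher in the FFPE wells of SCRB-seq, and Slc1a2 was not called. Slc1a3, the transporter GLAST, lies on chromosome 15 at 8634124 to 8710764 on the minus strand (GRCm38, GENCODE M21). Its level in the 16 frozen SCRB-seq wells was 0 at the lowest, 142 CPM at the median and 344 CPM at the highest. In heated mineral oil the lowest, median and highest of 16 wells were 0, 543 and 4699 CPM, in heated xylene 131, 480 and 3383 CPM, and in room-temperature xylene 43.4, 297 and 5624 CPM. Of the 48 FFPE wells, 33 stood above the highest frozen well, and none of the 16 frozen wells stood above the FFPE median. The FFPE minus frozen log2 fold change was 2.57 (SE 0.48, adjusted p = 4.92e-06, edgeR quasi-likelihood test with Benjamini-Hochberg adjustment over all 1478 genes tested).

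Slc1a2, the transporter GLT-1, lies on chromosome 2 at 102658659 to 102790784 on the plus strand. Its frozen wells held 108, 331 and 508 CPM at the lowest, median and highest. In the 3 FFPE treatments it held 121, 290 and 1949 CPM (mineral oil), 37.5, 310 and 1900 CPM (heated xylene) and 92.0, 255 and 967 CPM (xylene at room temperature). The FFPE wells overlapped the frozen range on both sides: 12 of 48 were above the highest frozen well and 7 below the lowest. The log2 fold change was 0.20 (SE 0.32, adjusted p = 0.608), and it turned to -0.41 (adjusted p = 0.240) with DESeq2 size factors.

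The 2 transporters were also set against each other. Over the 16 wells together, frozen nuclei held 0.436 Slc1a3 counts per Slc1a2 count in SCRB-seq, with Slc1a3 above Slc1a2 in 1 of 16 wells. For heated mineral oil the ratio was 2.61, for heated xylene 1.87 and for xylene at room temperature 1.93, with Slc1a3 above Slc1a2 in 10, 13 and 9 of 16 wells. These ratios are of raw counts summed over wells, so wells with more counts weigh more. In SMART-Seq2 the ratio was 0.0697 in frozen wells, 0.221 in heated xylene, 0.749 in mineral oil and 1.12 in room-temperature xylene, and Slc1a3 was above Slc1a2 in 2 of the 3 room-temperature xylene wells and in none of the other 9. With 1 well left out, the ratio lay between 0.0179 (without the well of 100 nuclei) and 0.162 (without that of 10) in frozen wells, between 0.129 (without 100) and 0.463 (without 10) in heated xylene, between 0.595 and 0.840 in mineral oil and between 0.971 (without 50) and 1.18 in room-temperature xylene. Slc1a2 thus had more counts than Slc1a3 in frozen wells by both assays, but in the FFPE wells of heated methods the assays differed in which gene had more. No test was made of the ratio.

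The Slc1a3 counts were not spread evenly over the wells. Each set of 8 wells (a treatment and a nuclei number) carries well numbers 1 to 8 in the column names, and Slc1a3 was highest in the well numbered 7 in all 6 FFPE sets. Those wells held 1682 and 5624 CPM in room-temperature xylene, 1410 and 3383 CPM in heated xylene and 1878 and 4699 CPM in heated mineral oil, for 100 and 10 nuclei in that order. They supplied 44.3% of all Slc1a3 counts of the FFPE wells and 12.9% of all counts. The well numbered 7 was also the highest of the 8 frozen wells of 10 nuclei, at 344 CPM, but not of the 8 frozen wells of 100 nuclei, where it held 163 CPM.

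No other member had its highest well at the same number in all 6 sets. Of the 6004 genes with at least 100 counts in the FFPE wells, 58 (0.966%) had their highest well at 1 number in all 6, and for 21 of them that number was 7. The sources used here do not say what the wells numbered 7 share.

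Without these wells Slc1a3 remained higher in FFPE, with a log2 fold change of 2.07 (SE 0.38, adjusted p = 3.47e-06, edgeR quasi-likelihood test), as did Aldoc, Gpc5 and Slc4a4, at 2.11, 1.53 and 1.44. Of 1502 genes tested there, 53.5% were called in either direction and 31.6% higher in FFPE. The remaining 42 FFPE wells held 0, 434 and 1370 CPM at the lowest, median and highest, and 27 of them were above the highest frozen well. The ratio of Slc1a3 to Slc1a2 counts was then 1.83 for heated mineral oil, 1.41 for heated xylene and 0.874 for xylene at room temperature. For frozen wells, also without those numbered 7, it was 0.423.

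Slc4a4 encodes NBCe1, the electrogenic sodium bicarbonate carrier of astrocytes. It lies on chromosome 5 at 88886818 to 89239653 on the plus strand. Frozen SCRB-seq wells held 16.9, 121 and 568 CPM at the lowest, median and highest, and the 48 FFPE wells 0, 274 and 1223 CPM. Only 5 FFPE wells stood above the highest frozen well, which held 568 CPM in a well of 10 nuclei. The log2 fold change was 1.29 (SE 0.36, adjusted p = 0.00132), and the call was lost with DESeq2 size factors (0.70, adjusted p = 0.0910), with the DESeq2 Wald test (0.70, adjusted p = 0.0606) and in the wells of 10 nuclei alone (0.73, adjusted p = 0.314).

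Aldoc encodes the brain form of the glycolytic enzyme aldolase, and its gene on chromosome 11 is short, from 78322968 to 78327781. Frozen wells held 0, 36.2 and 134 CPM at the lowest, median and highest. Heated xylene wells held 74.8, 217 and 484 CPM and room-temperature xylene wells 36.3, 158 and 478 CPM, so none of these 32 wells was without counts. The log2 fold change, FFPE minus frozen, was 1.91 (SE 0.41, adjusted p = 3.89e-05).

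In heated mineral oil Aldoc differed between the nuclei numbers. All 8 wells of 100 nuclei held it, with 662 CPM in the highest well, whereas all 8 wells of 10 nuclei had 0 counts. Those 8 wells held 115185 counts together, so that 3 counts, the upper limit that a count of 0 allows, correspond to 26.0 CPM over the set. Plpp3 was also at 0 in the same 8 wells. In the other FFPE wells pooled, Aldoc held 251 CPM and Plpp3 166 CPM. Of the 1022 genes at or above the level of Plpp3 in those other wells, 107 (10.5%) were without counts in the 8 mineral oil wells of 10 nuclei.

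Gpc5 encodes glypican-5, a heparan sulfate proteoglycan anchored to the cell surface, from a gene of 1432965 bases on chromosome 14, by far the longest of the 9. Frozen wells held 207, 304 and 644 CPM at the lowest, median and highest. FFPE wells held 549, 837 and 4934 CPM in heated mineral oil, 654, 1177 and 2141 CPM in heated xylene and 436, 792 and 1062 CPM in room-temperature xylene. It was the member whose wells separated best: 43 of 48 FFPE wells stood above the highest frozen well, and all 48 above the frozen mean of 359 CPM. The log2 fold change was 1.46 (SE 0.21, adjusted p = 8.94e-09).

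Plpp3 encodes a membrane phosphatase that inactivates lysophosphatidic acid and related lipids. Its SCRB-seq levels were low, and it did not pass the filter on low counts. It held 0, 63.8 and 119 CPM in the frozen wells at the lowest, median and highest, and 0, 63.3 and 815 CPM in the FFPE wells. The medians were close, but the pooled level was 61.9 CPM in frozen and 159 CPM in FFPE wells, and 17 of 48 FFPE wells stood above the highest frozen well. In wells of 100 nuclei the pooled levels were 72.6 and 202 CPM, and in wells of 10 nuclei, where 8 of 24 FFPE wells had a count, 34.0 and 80.6 CPM.

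Aqp4, the water channel of astrocyte endfeet, and Gja1, the gap junction protein connexin 43, did not pass the filter either. Aqp4 had a count in 3 of 16 frozen wells, 33.9 CPM at the highest, and in 21 of 48 FFPE wells, 294 CPM at the highest. Gja1 had a count in 5 of 16 frozen wells, 49.0 CPM at the highest, and in 33 of 48 FFPE wells, 371 CPM at the highest. Gja1 was detected in all 16 heated xylene wells and in 11 of 16 mineral oil wells, but in 6 of 16 wells of room-temperature xylene, where its pooled level of 16.3 CPM was close to the 16.0 CPM of frozen wells.

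**Figure D1:**
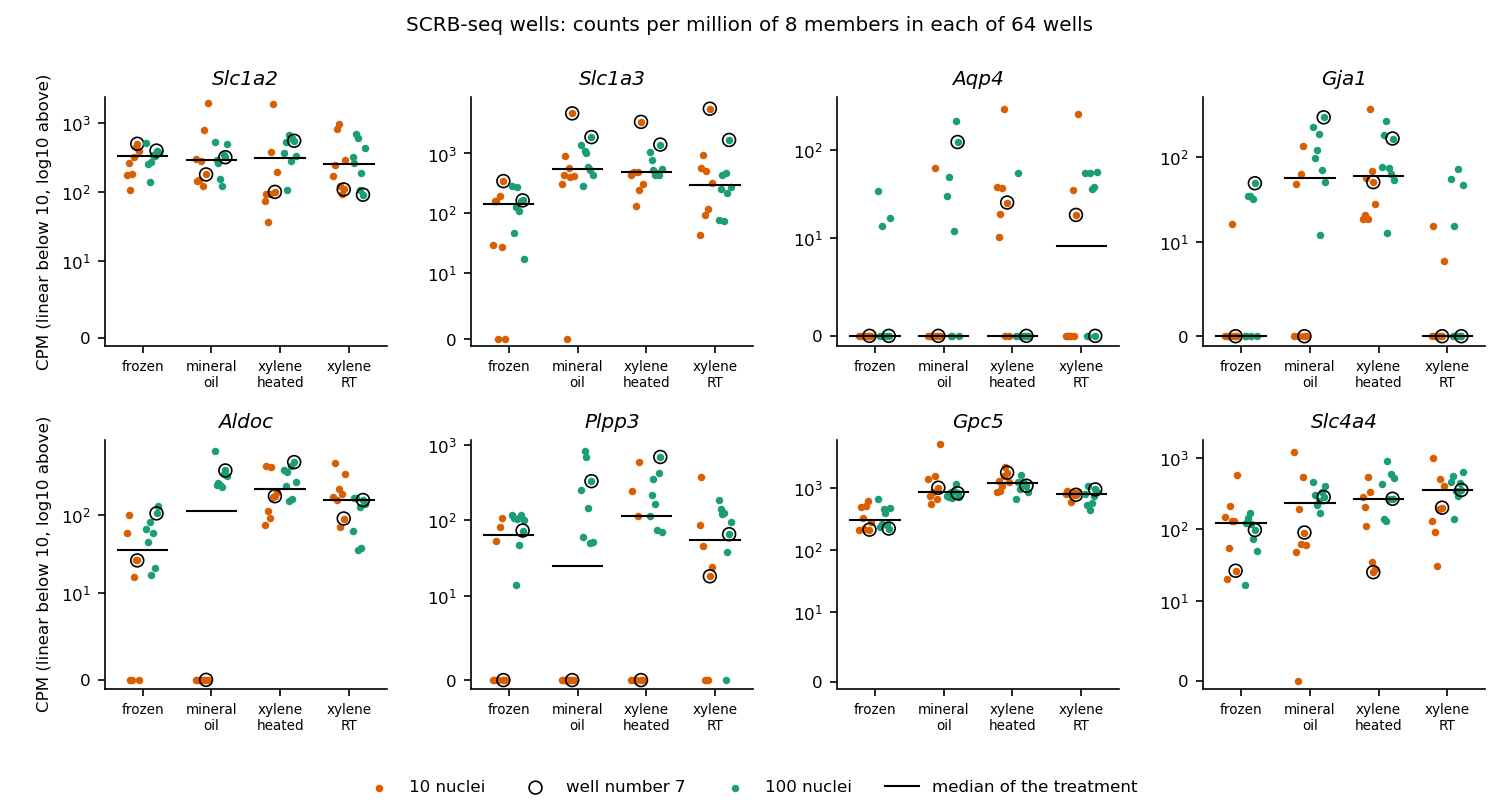
CPM of 8 members in 64 SCRB-seq wells, by treatment, on an axis that is linear below 10 and log10 above. Points are wells (orange 10 nuclei, green 100 nuclei), bars are treatment medians and circles mark the wells numbered 7, which hold the highest Slc1a3 value in all 6 FFPE sets. Gpc5 separates frozen from FFPE wells most clearly, Slc1a2 overlaps throughout, and Aldoc and Plpp3 are at 0 in all 8 mineral oil wells of 10 nuclei.

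Of the 5 members tested in SCRB-seq, 4 were called higher in FFPE wells and none lower. Over all genes tested, 58% were called in either direction and 30.2% were called higher in FFPE. The median log2 fold change was 1.46 over the 5 members and 0.00 over all 1478 genes. With DESeq2 size factors the median over all genes was -0.58, and 20.9% of genes were called higher. Slc1a3, Aldoc and Gpc5 were still called with that scaling, at 1.94, 1.34 and 0.82. A gene passed the filter on low counts if enough wells reached the count, whatever their treatment. A member low in frozen wells could thus be tested through FFPE wells alone, and Aqp4, Gja1 and Plpp3 were not tested. The number of members called and their median therefore describe the tested members and give no direction for the set.

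Each paraffin removal method alone gave a log2 fold change against frozen wells of 2.41 to 2.68 for Slc1a3, 1.65 to 2.28 for Aldoc, 1.15 to 1.77 for Gpc5 and 1.02 to 1.55 for Slc4a4, all called. These comparisons share their frozen wells. Slc1a2 was not called against frozen wells for any method, at 0.11 to 0.27.

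Other astrocyte genes from a list of 40 were mostly too low to test in SCRB-seq: 8 were tested, 5 rose and none fell, with a median log2 fold change of 1.68. These genes too could pass the filter through FFPE wells alone. Those that rose were Grin2c (3.72), an NMDA receptor subunit that cerebellar granule neurons also express, Glul (2.71), the glutamine synthetase that receives the glutamate astrocytes take up, Atp1b2 (2.48), a sodium pump subunit, Ptprz1 (1.72), a receptor phosphatase, and Nfia (1.64), a transcription factor of glial fate. Apoe, the main lipid carrier of the brain, had a log2 fold change of -0.63 and was not called (adjusted p = 0.0848, edgeR quasi-likelihood test).

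The SMART-Seq2 wells gave the members' levels by whole transcripts. Slc4a4 held 97.6, 200 and 191 CPM in the frozen wells of 10, 50 and 100 nuclei. It held 441, 781 and 864 CPM in mineral oil, 706, 594 and 750 CPM in heated xylene and 987, 827 and 660 CPM in room-temperature xylene. All 9 FFPE wells stood above all 3 frozen wells, and the log2 fold change was 1.93 (SE 0.43, adjusted p = 0.00793, edgeR quasi-likelihood test). Without the frozen well of 10 nuclei, which held the lowest value, it was 1.74 (adjusted p = 0.0864). Slc4a4 was the single member called among 8 tested, against 4.09% of all 9092 genes called in either direction, 1.45% called higher in FFPE and 2.64% called lower.

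The other 7 members were at 0 to 38.6 CPM in the mineral oil and room-temperature xylene wells of 10 nuclei. Slc1a2 held 514, 374 and 525 CPM in the frozen wells of 10, 50 and 100 nuclei. It held 0, 608 and 588 CPM in mineral oil, 3286, 421 and 1390 CPM in heated xylene and 38.6, 813 and 669 CPM in room-temperature xylene. The FFPE wells of 10 nuclei thus gave both the lowest and the highest value.

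Slc1a3 held 0, 37.0 and 98.6 CPM in the frozen wells, in the same order of nuclei number. It held 0, 362 and 494 CPM in mineral oil, 394, 89.3 and 763 CPM in heated xylene and 4.06, 995 and 683 CPM in room-temperature xylene. Of the 9 FFPE wells, 6 stood above all frozen wells. The log2 fold change was 2.86 (SE 1.31, adjusted p = 0.302, edgeR quasi-likelihood test). It was called with no filter on low counts, at 2.93 (adjusted p = 0.000978), and was 4.51 (adjusted p = 0.205) without the frozen well of 100 nuclei, the highest of the frozen wells.

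Gpc5 held 47.1, 107 and 236 CPM in the frozen wells. It held 3.90, 428 and 688 CPM in mineral oil, 1643, 802 and 933 CPM in heated xylene and 22.3, 1034 and 846 CPM in room-temperature xylene, so 7 of 9 FFPE wells were above and 2 below the frozen range. Aldoc held 10.1, 14.8 and 19.3 CPM in the frozen wells and 0 to 279 CPM in the FFPE wells, 8 of 9 of which were above. Neither was called by edgeR with the filter on low counts, at log2 fold changes of 2.02 (adjusted p = 0.296) and 2.99 (adjusted p = 0.154, edgeR quasi-likelihood test). When the room-temperature xylene well with 10 nuclei, the single well with no Aldoc count, was left out, Aldoc was called at 3.29 (adjusted p = 0.0173), and DESeq2's Wald test called it at 2.98 (adjusted p = 0.0230). Gpc5 was called with no filter, at 2.08 (adjusted p = 0.00273), and was 2.96 (adjusted p = 0.209) without the frozen well of 100 nuclei.

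Aqp4 had 0 counts in the 3 frozen wells and 422 CPM in the heated xylene well of 10 nuclei, its highest value. The other 8 FFPE wells held 0 to 55.0 CPM. Pooled over the 9 FFPE wells it held 93.3 CPM, at least 50.6-fold higher than the 1.84 CPM that 3 counts over the frozen wells would give. The heated xylene well of 10 nuclei supplied 398 of the 527 FFPE counts, and without it the pooled level was 27.4 CPM, at least 14.9-fold higher. The edgeR test did not call it (adjusted p = 0.0849), but it was called when either the room-temperature xylene well (adjusted p = 0.0333) or the mineral oil well (adjusted p = 0.0379) with 10 nuclei was left out, with no filter on low counts (adjusted p = 0.0101) and by DESeq2's Wald test (adjusted p = 0.00386).

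Gja1 held 0, 18.5 and 0 CPM in the frozen wells and 0 to 189 CPM in the FFPE wells, and 7 of the 9 FFPE wells were above. Plpp3 held 0, 48.1 and 77.1 CPM in the frozen wells and 0 to 531 CPM in the FFPE wells, with 6 of 9 above. Their log2 fold changes were 3.54 (adjusted p = 0.306) and 1.98 (adjusted p = 0.527, edgeR quasi-likelihood test). Plpp3 was 3.05 (adjusted p = 0.543) without the frozen well of 100 nuclei and 1.38 (adjusted p = 0.655) without the mineral oil well of 100 nuclei, the highest and the lowest of its 18 values over all settings. All 5 frozen Gja1 counts lay in the frozen well of 50 nuclei. Without that well Gja1 had no frozen count, its FFPE level of 75.4 CPM was at least 34.1-fold higher than 3 counts over the other frozen wells would give, and the adjusted p was 0.125.

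The SMART-Seq2 calls changed without the wells of 10 nuclei. With those left out, a choice made after seeing the data, 5 of the 8 members were called higher in FFPE: Aldoc at 3.03 (adjusted p = 0.00259), Slc4a4 at 1.70 (adjusted p = 0.00171), Gpc5 at 1.89 (adjusted p = 0.00494), Slc1a3 at 2.67 (adjusted p = 0.0256) and Gja1 at 3.40 (adjusted p = 0.0454), all by the edgeR quasi-likelihood test. Of all genes 8.13% were then called in either direction and 3.72% higher in FFPE. The fold change of Slc1a2 was 0.47 (adjusted p = 0.551).

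All 8 members had a log2 fold change above 0 in SMART-Seq2, with a median of 2.44, also with Aqp4 taken at its lower bound. Over all genes the median was -0.13. Genes could pass the filter through FFPE wells alone, as Aqp4 did without a frozen count. The signs and medians of the members and of the lists below are therefore descriptions of the genes tested. Of the 40 other astrocyte genes 32 were tested, 4 rose and none fell, and their median was 2.53, also with Pla2g7, which had no frozen counts, at its lower bound. Grin2c (6.56), Atp1b2 (3.50) and Nfia (2.02) rose here as in SCRB-seq, and so did the lipase gene Pla2g7, at least 39.1-fold higher in FFPE. Genes of oligodendrocytes, the myelinating glia, had fold changes of the same sign: all 6 tested were above 0 on the log2 scale, with a median of 2.90. Their summed level was 66.2 to 311 CPM in frozen and 179 to 2322 CPM in FFPE wells. The part of such other glial RNA in the members' values was not tested.

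**Figure D2:**
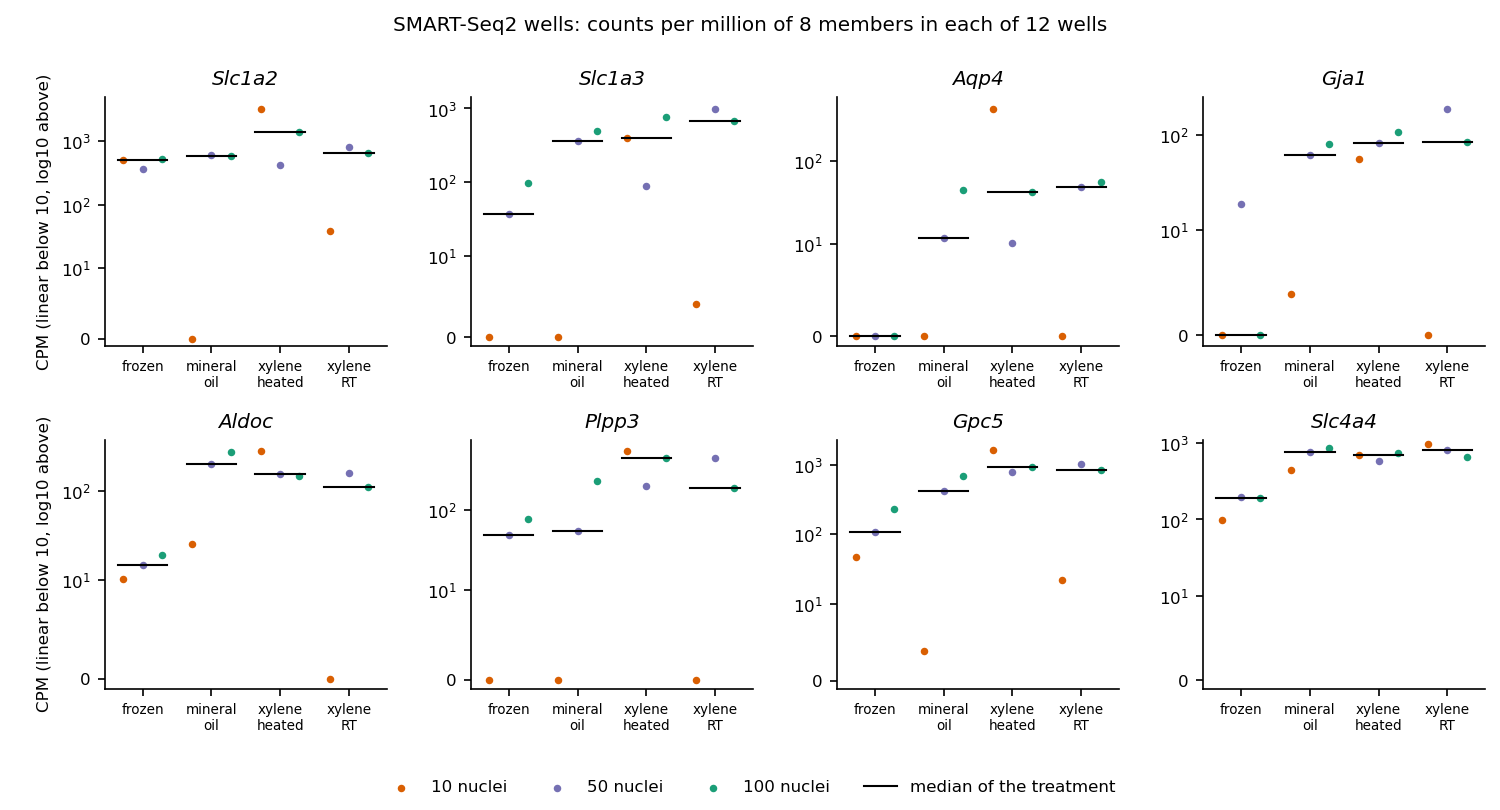
CPM of 8 members in 12 SMART-Seq2 bulk wells, by treatment, on an axis that is linear below 10 and log10 above. Points are wells of 10 (orange), 50 (violet) or 100 nuclei (green) and bars are treatment medians; Slc4a4 is above the frozen wells in all 9 FFPE wells, and the mineral oil and room-temperature xylene wells of 10 nuclei are at 0 to 38.6 for the other members.

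**Figure D3:**
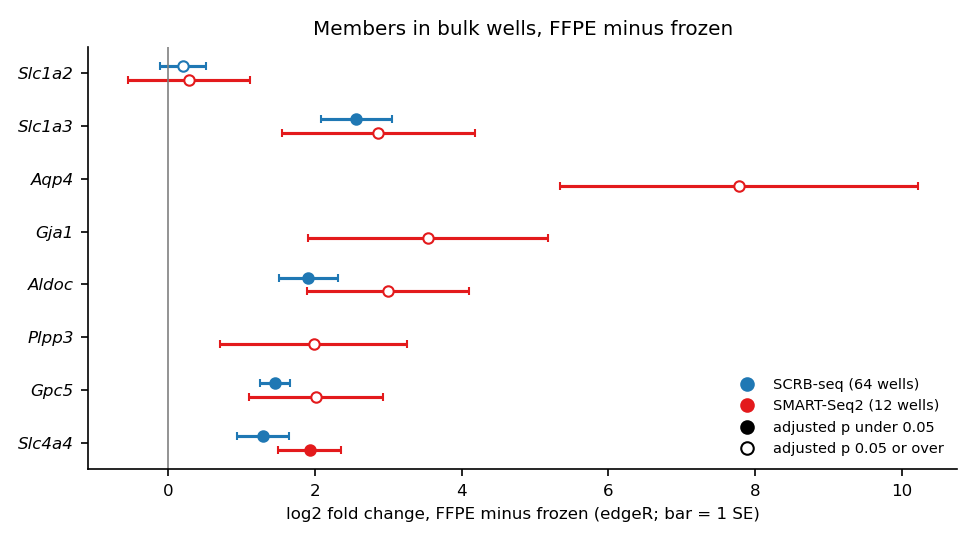
Log2 fold change, FFPE minus frozen, with 1 SE, for the members tested in SCRB-seq (blue, 5 members) and SMART-Seq2 (red, 8 members); filled points have an adjusted p under 0.05. Slc1a3, Aldoc, Gpc5 and Slc4a4 are called in SCRB-seq and Slc4a4 alone in SMART-Seq2, while both values of Slc1a2 lie near 0.

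The study's own question was how the paraffin removal methods compare. None of the 5 members tested was called between methods in SCRB-seq, where 8.52%, 1.94% and 10.3% of 1080 genes were called for mineral oil against heated xylene, heated against room-temperature xylene, and mineral oil against room-temperature xylene. The log2 differences lay between -0.44 and 0.64. Gpc5 came nearest to a call, for heated minus room-temperature xylene, at 0.62 (SE 0.23, adjusted p = 0.155, edgeR quasi-likelihood test). The standard errors were 0.23 to 0.52, so these data do not show that the methods gave the same levels.

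Aldoc and Gja1 differed between methods under other settings. In the wells of 100 nuclei alone, Aldoc was higher in heated than in room-temperature xylene, at 1.50 (SE 0.36, adjusted p = 0.0106), and higher in mineral oil than in room-temperature xylene, at 1.63 (SE 0.37, adjusted p = 0.00328, edgeR quasi-likelihood test), where 5.99% and 9.11% of 1953 genes were called. Mineral oil minus heated xylene was 0.13 (adjusted p = 0.869, 13.1% of genes called). In the wells of 10 nuclei alone Aldoc did not pass the filter.

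Gja1 was tested when the filter asked for 3 counts in place of 10. It was then lower in room-temperature xylene than in heated xylene, with a heated minus room-temperature difference of 2.60 (SE 0.60, adjusted p = 0.00311), and lower than in mineral oil, with a difference of 2.45 (SE 0.61, adjusted p = 0.00407, edgeR quasi-likelihood test). Of 3909 genes, 6.34% and 12.2% were called in these comparisons. Mineral oil minus heated xylene was -0.15 (adjusted p = 0.894, 13.1% of genes called). The methods also differed in the summed level of 9 astrocyte markers that are not members, with medians of 207, 455 and 313 CPM for mineral oil, heated xylene and xylene at room temperature, and of 6 oligodendrocyte genes, with medians of 202, 2067 and 1999 CPM in that order. Their part in the differences of Aldoc and Gja1 was not tested.

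Of the 8 other astrocyte genes tested between methods, Sparcl1, which encodes a secreted matrix protein, was higher in heated than in room-temperature xylene (2.30) and in mineral oil than in room-temperature xylene (1.81), and so was Apoe (1.71 and 1.32). Grin2c was lower in heated than in room-temperature xylene (-2.25) and higher in mineral oil than in heated xylene (1.76). In SMART-Seq2, edgeR called 0 of 8372 genes in each of the 3 pairs of methods, and 314, 199 and 379 genes had an unadjusted p under 0.05. DESeq2's Wald test called 16, 1 and 20. None of the 8 members was among these calls of edgeR or DESeq2. The difference of Slc1a2 for mineral oil minus heated xylene, -2.22 (SE 1.03), was the member difference farthest from 0 relative to its error. It was called when no filter was applied (-2.27, adjusted p = 0.00662, edgeR quasi-likelihood test), where 0.117% of 16292 genes were called. The wells of 10 nuclei weighed heavily in it. Without that well, 1295 of the 4394 Slc1a2 counts in heated xylene remained, and in mineral oil that well had no Slc1a2 count.

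In the plates, single nuclei were compared without a test, since the columns name 2 plates of FFPE and 2 of frozen nuclei and no label ties these plates to separate samples. The table of the whole series held 143 FFPE nuclei with a median of 47887 counts and 137 frozen nuclei with a median of 255329. Of the FFPE nuclei, 134 equal those of the second batch value for value, and 7 of the other 9 have more counts than any nucleus of that batch. Summed levels are given with and without these 7. Shares of nuclei were taken after each nucleus was thinned at random to 10000 counts, which leaves 127 frozen and 135 FFPE nuclei, or 128 without the 7. A share from 1 such draw is given with its binomial interval, and the share expected over all draws was computed exactly for each member. A drawn share varies between draws by an SD of 0.903 to 2.57 percentage points over the members. The intervals cover counting error only. In these nuclei too, the 5 measured cerebellar granule neuron genes summed to 12.5 CPM in frozen and 960 CPM in FFPE nuclei, and the telencephalon genes to 112 and 21.6 CPM. The 4 Bergmann glia genes summed to 171 and 260 CPM, or 168 CPM in FFPE nuclei without the 7. The 9 measured astrocyte markers that are not members summed to 669 and 319 CPM (465 CPM without the 7). Excitatory neuron genes summed to 1615 and 420 CPM (771 CPM without the 7), and inhibitory neuron genes to 1015 and 418 CPM (456 CPM). The 38 measured of the 40 other astrocyte genes went the other way, at 6143 and 7474 CPM.

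Slc1a2 was lower in FFPE than in frozen nuclei. Its summed level was 952 CPM in frozen nuclei (95% Poisson interval 944 to 959) and 304 CPM in FFPE nuclei (297 to 311), or 499 CPM without the 7 high-count nuclei. After thinning, 70.1% of 127 frozen nuclei (95% binomial interval 61.3% to 77.9%) and 37.0% of 135 FFPE nuclei (28.9% to 45.8%) had a Slc1a2 count. Expected over all draws, the shares were 69.5% and 34.4%, or 32.8% of FFPE nuclei without the high-count nuclei. The unthinned shares were 83.2% and 49.7%. The intervals did not overlap on either measure. Both groups came from 2 plates, and Slc1a2 summed to 908 and 994 CPM on the frozen plates and to 587 and 217 CPM on the FFPE plates.

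Slc1a3 depended on the high-count nuclei. Its summed level was 87.3 CPM in frozen and 365 CPM in FFPE nuclei, but 53.3% of its FFPE counts came from 1 nucleus, and without the 7 high-count nuclei it was 93.7 CPM. The frozen plates held 91.4 and 83.3 CPM and the FFPE plates, with all nuclei, 79.7 and 452 CPM. Its thinned shares were 22.8% (15.9% to 31.1%) in frozen and 28.1% (20.8% to 36.5%) in FFPE nuclei, whose intervals overlapped. The expected shares were 24.0% in frozen nuclei, 25.4% in FFPE nuclei and 23.2% in FFPE nuclei without the high-count nuclei, so the order turned when these were left out.

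Aldoc summed to 489 CPM in frozen nuclei, 657 CPM in FFPE nuclei and 1111 CPM without the high-count nuclei, with thinned shares of 40.9% and 43.7% in frozen and FFPE nuclei. The expected shares were 42.2%, 42.8% and 41.2% in the order of the sums, so here too the order turned without the high-count nuclei. By plate it was 521 and 459 CPM in frozen nuclei and 1633 and 357 CPM in FFPE nuclei, so the higher sum came from 1 FFPE plate and the other was below both frozen plates. Slc4a4 summed to 136, 203 and 273 CPM in the same order, with thinned shares of 34.6% and 43.0%, and Gpc5 to 211, 420 and 370 CPM, with shares of 35.4% and 28.9%. The expected shares of Slc4a4 were 31.4% in frozen and 42.1% in FFPE nuclei, and those of Gpc5 35.6% in frozen, 32.6% in FFPE and 30.2% in FFPE nuclei without the high-count nuclei. By plate, Slc4a4 was 100 and 169 CPM in frozen and 319 and 167 CPM in FFPE nuclei, and Gpc5 181 and 239 CPM in frozen and 211 and 484 CPM in FFPE nuclei, so for neither gene did both FFPE plates stand above both frozen plates. For all 3 genes the share intervals overlapped. In Gpc5, 1 nucleus supplied 50.2% of the FFPE counts.

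Plpp3 was found in 14.1% of thinned FFPE nuclei (8.69% to 21.1%) and 26.8% of frozen nuclei (19.3% to 35.4%), whose intervals overlapped. Without the high-count nuclei it was found in 11.7% of FFPE nuclei (6.71% to 18.6%) in the same draw, below the frozen interval. The expected shares were 26.6% in frozen, 13.3% in FFPE and 11.5% in FFPE nuclei without the high-count nuclei. Its summed level was 65.0 CPM in frozen and 148 CPM in FFPE nuclei, but 39.0 CPM without the high-count nuclei. Gja1 summed to 13.6 and 30.9 CPM, with 75.2% of the FFPE counts from 1 nucleus, and to 16.5 CPM without the high-count nuclei. Its expected shares were 7.15% in frozen, 6.33% in FFPE and 6.02% in FFPE nuclei without the high-count nuclei. Aqp4 summed to 13.2 and 3.64 CPM and was found in 9 of 127 and 3 of 135 thinned nuclei, with expected shares of 6.87% and 2.37%, or 2.44% without the high-count nuclei.

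Of the 8 members, 6 had a higher summed level in FFPE nuclei, 5 without the high-count nuclei, and 3 had a larger share of nuclei after thinning (Slc1a3, Aldoc and Slc4a4). Without the high-count nuclei 1 member, Slc4a4, had a larger expected share in FFPE nuclei, at 42.0% against 31.4%. More than 2-fold higher were Slc1a3, Gja1 and Plpp3, and more than 2-fold lower Slc1a2 and Aqp4. Of 11302 genes that reached 10 CPM among frozen or FFPE nuclei, 27.7% were more than 2-fold higher and 33.8% more than 2-fold lower in FFPE. Without the high-count nuclei, Aldoc and Slc4a4 were more than 2-fold higher and Aqp4 was more than 2-fold lower, against 26.3% and 38.4% of 10764 genes. The first FFPE batch, a separate table, went the other way for Aldoc, at 91.3 CPM against 489 CPM in frozen nuclei. It did so for Aqp4 as well, at 61.8 against 13.2 CPM, but not for Slc4a4, at 608 against 136 CPM.

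The first batch of FFPE nuclei, a separate table of 98 nuclei, differed from the second, of 134. Aldoc summed to 91.3 CPM in the first and 1006 CPM in the second batch, and its thinned share was 11.1% and 42.1%. Aqp4 and Gja1 went the other way, with 61.8 and 94.7 CPM in the first batch against 4.66 and 16.4 CPM in the second. In the first batch 5 nuclei supplied 97.9% of the Aqp4 counts and 97.6% of the Gja1 counts. Slc4a4, Gpc5, Slc1a3 and Plpp3 were also higher in the first batch, at 608, 601, 259 and 160 CPM against 278, 379, 92.8 and 37.7 CPM. Slc1a2 was lower there, at 401 against 494 CPM. The batches are 1 sample each, and the sources used here do not say what differs between them.

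The number of members found in a nucleus was compared next. Of the thinned nuclei, 45.7% of frozen and 31.1% of FFPE nuclei had at least 3 of the 8 members, and at least 5 were found in 17.3% and 8.15%. At least 1 member was found in 84.3% and 83.7%, so the share of nuclei with any member was nearly the same. Without the high-count nuclei, 28.1% of FFPE nuclei had at least 3 members, 7.03% at least 5 and 82.8% at least 1, in the same draw. Slc1a2 was found in 86.2% of the 29 frozen nuclei with Slc1a3 and in 65.3% of the 98 without it. In FFPE nuclei the shares were 55.3% of 38 and 29.9% of 97. Slc17a7, the vesicular glutamate transporter of excitatory neurons, was found in 62.1% of the frozen nuclei with Slc1a3 and in 17.3% of those without, and in 21.1% and 17.5% of FFPE nuclei. These are shares from 1 draw and include the high-count nuclei. A frozen nucleus with Slc1a3 therefore often also held a neuronal gene.

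**Figure D4:**
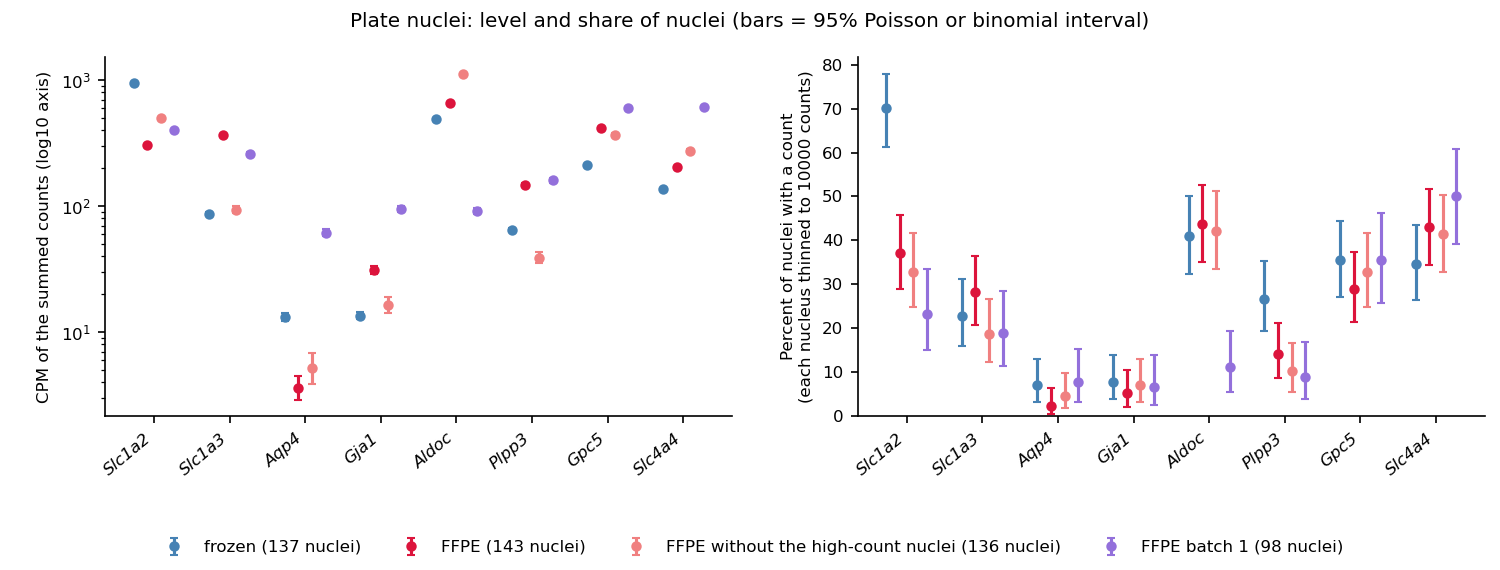
Left, summed CPM of 8 members on a log10 axis, and right, percent of nuclei with a count after thinning to 10000 counts, for frozen nuclei, FFPE nuclei, FFPE nuclei without the 7 high-count nuclei and the first FFPE batch; bars are 95% Poisson or binomial intervals, and each set was thinned in a draw of its own. Slc1a2 is the member whose frozen share, 70.1%, stands farthest above the FFPE shares, and the summed CPM of Slc1a3, Gja1, Plpp3 and Gpc5 is lower when the high-count nuclei are left out.

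The droplet table held 7031 FFPE nuclei with 235 to 998 UMIs each (median 325), in 12 classes named by the authors. The Astrocyte class had 624 nuclei (8.87%) and a median of 339 UMIs, against 324 in the other nuclei, so depth was similar. All nuclei are 1 sample, and the classes were made from the expression of these cells, so levels by class are described without a test. Of 10 further astrocyte markers, 6 had at least 100 UMIs, 5 of them were more than 2-fold higher in the Astrocyte class than in all other nuclei and 3 were highest there. Their sum was 1944 CPM in the Astrocyte class and 443 CPM in the neuron classes, but 3230 CPM in the 47 nuclei of the Fibroblast class. The markers and the members were chosen with earlier results of these data known, so counts of those leading in a class are descriptions.

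All 9 members were highest in the Astrocyte class. Of the 5107 genes with at least 100 UMIs, 5.44% were highest in that class and 3.84% were more than 2-fold above all other nuclei. Among the members, 8 were more than 2-fold above the other nuclei and Aldoc was not. Gfap, with 77 UMIs in all, was below the minimum of 100. The Poisson interval in the Astrocyte class did not overlap that of the next class for Slc1a2, Slc1a3, Slc4a4 and Gpc5, and it did for the other 5 members.

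Against all other nuclei pooled, Gpc5 and Plpp3 had the largest folds of the 9. Gpc5 held 2221 CPM in the Astrocyte class (95% Poisson interval 2034 to 2421) and 204 CPM in all other nuclei (186 to 223), 10.9-fold more, and 51.8% of its UMIs lay in the class. Its second class was OPC, the oligodendrocyte precursors, at 1019 CPM (805 to 1272), while the neuron classes held 98.5 to 291 CPM. Plpp3 held 478 CPM (394 to 576) in the Astrocyte class and 60.3 CPM in the others, 7.93-fold more. Its second class was Fibroblast, at 303 CPM from 6 UMIs (111 to 659), whose interval overlapped that of the Astrocyte class. Against the next class, the fold was 2.66 for Aqp4, 2.18 for Gpc5, 2.00 for Slc1a3, 1.69 for Gja1, 1.58 for Plpp3, 1.51 for Slc1a2, 1.48 for Slc4a4, 1.39 for Gfap and 1.22 for Aldoc.

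Slc1a3 held 1410 CPM (1262 to 1570) in the Astrocyte class and 221 CPM (202 to 240) in the others, 6.39-fold more. Its second class was Fibroblast, at 707 CPM from 14 UMIs (386 to 1186), and the neuron classes held 175 to 234 CPM. Slc1a2 held 2345 CPM (2153 to 2550) in the class, 2.41 times its level of 971 CPM in the other nuclei. Its second class was Endothelial, at 1555 CPM (1247 to 1916), followed by Microglia at 1263 CPM (889 to 1741). The neuron classes held 731 CPM in ExNeuron4 to 1109 CPM in ExNeuron1, whose intervals (638 to 834 and 1039 to 1183) did not overlap.

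Aqp4 held 282 CPM (218 to 359) in the Astrocyte class and 55.2 CPM in the others, 5.10-fold more. None of the 215 OPC nuclei had an Aqp4 UMI, which allows a share of nuclei with a UMI of up to 1.40% and sets no limit on the nuclei that express it. Gja1 held 256 CPM (196 to 330) against 63.3 CPM, 4.05-fold more. Gfap held 76.9 CPM (45.6 to 122) from 18 UMIs against 24.9 CPM, 3.09-fold more.

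Slc4a4 and Aldoc had the smallest folds over all other nuclei pooled. Slc4a4 held 897 CPM (780 to 1027) in the Astrocyte class and 411 CPM in the others, 2.18-fold more. Among neuron classes it was 606 CPM (531 to 688) in ExNeuron3 and 535 CPM (461 to 618) in ExNeuron2 but 318 CPM (281 to 359) in ExNeuron1, so its level outside the Astrocyte class was not even. Aldoc held 585 CPM (491 to 692) in the Astrocyte class and 403 CPM in the others, 1.45-fold more, and the next class, Oligodendrocyte, held 478 CPM (357 to 627), whose interval overlapped. The neuron classes together held 399 CPM (372 to 427), below the interval of the Astrocyte class.

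The shares of nuclei with a UMI were compared at equal depth. After thinning to 260 UMIs, which left out 38 of 624 Astrocyte nuclei and 580 of the other 6407, a UMI was found in 41.0% of Astrocyte nuclei for Slc1a2, 31.1% for Gpc5, 26.3% for Slc1a3, 19.8% for Slc4a4, 14.7% for Aldoc, 10.9% for Plpp3, 6.83% for Aqp4, 6.48% for Gja1 and 2.73% for Gfap. In the 5095 thinned nuclei of the neuron classes the shares were 21.6%, 4.14%, 5.40%, 10.7%, 9.79%, 1.33%, 1.47%, 1.71% and 0.589% in the same order. Without thinning they were 49.5% and 29.2% for Slc1a2 and 35.3% and 5.50% for Gpc5. All 9 shares were larger in the Astrocyte class than in the neuron classes. Genes of other cell types had UMIs in these classes too: oligodendrocyte genes summed to 1700 CPM in the neuron classes and 1978 CPM in the Astrocyte class, and cerebellar granule neuron genes to 920 and 619 CPM. A UMI in a class therefore does not show that its nuclei express the gene, and the part of free RNA in the members' levels was not tested. At this depth 80.2% of Astrocyte nuclei and 45.6% of all others had at least 1 of the 9, and at least 3 were found in 22.2% and 1.46%.

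The 5 genes listed here followed the members' distribution over the 12 classes most closely, by Pearson's r between a gene's share of CPM over classes and the members' mean share: Prex2 (0.987), a Rac activator, Slc6a11 (0.977), a GABA transporter of astrocytes, Nwd1 (0.954), Nhsl1 (0.952) and Farp1 (0.947). They were the highest of 5099 genes, and Prex2 and Slc6a11 are also on the other astrocyte list. The 12 classes share 1 library, and r is a description. Of the other astrocyte list, 23 of 40 genes had at least 100 UMIs, 15 of them were highest in the Astrocyte class and 16 were more than 2-fold above the other nuclei. That list was chosen with earlier results of these data known, so its counts here, and the presence of Prex2 and Slc6a11 on it, are descriptions.

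**Figure D5:**
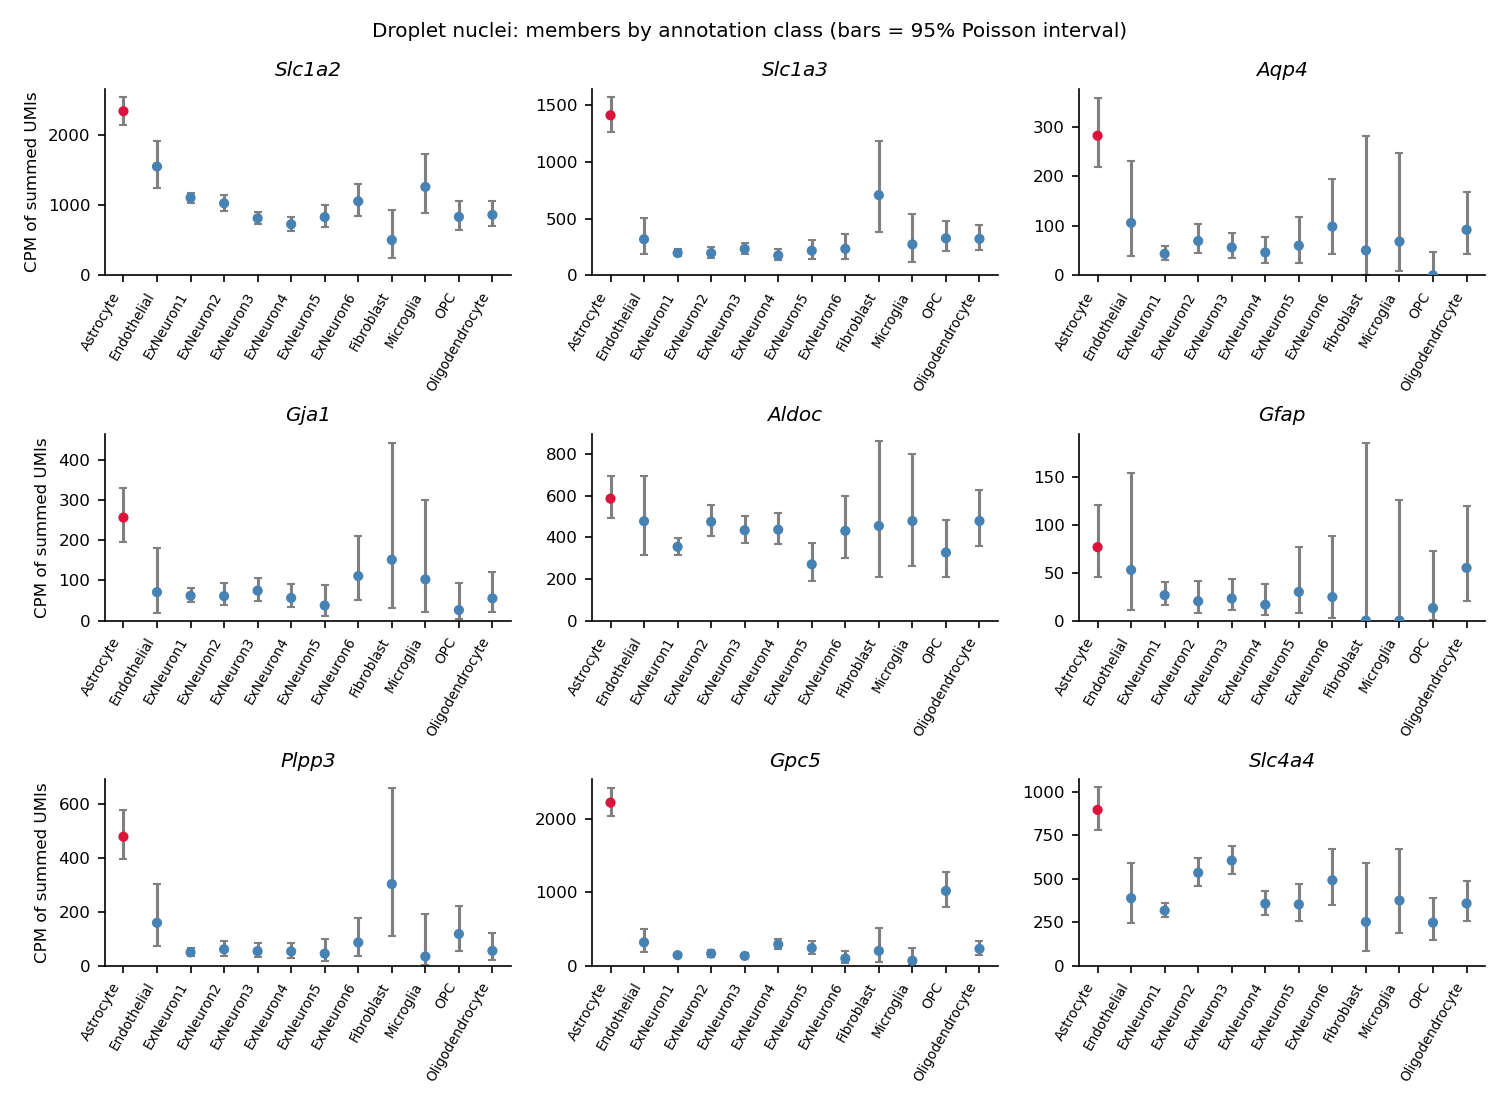
CPM of the summed UMIs of each member in 12 droplet classes (red Astrocyte, blue the others), with 95% Poisson intervals and axes from 0. Gpc5, Plpp3 and Slc1a3 stand far above the neuron classes, while Aldoc ranges from 270 to 585 CPM over all classes.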

How the data were processed

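The values are counts of reads or UMIs per gene, as deposited by the authors with no normalization, in tables for SCRB-seq wells, SMART-Seq2 wells, plate nuclei and droplet nuclei. The genome builds hg19 and mm10 are named in the submitters' processing notes, and the aligner and counter are not given there. Treatments, frozen nuclei and droplet classes come from the authors' annotation tables. SCRB-seq rows of the mouse genome alone were used (19006 genes).

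Bulk counts were tested with edgeR 4.0.16 in R 4.3.3 (TMM scaling, filterByExpr by treatment, quasi-likelihood test, Benjamini-Hochberg adjustment over all genes tested, calls at an adjusted p under 0.05). The FFPE minus frozen comparison set the mean of the 3 methods against frozen wells, and the 3 pairs of methods were fitted on FFPE wells alone. The log2 fold changes are edgeR's. Alternatives were DESeq2 1.42.0 size factors and Wald test, other filters on low counts, the number of nuclei as a covariate, wells of 10 or 100 nuclei alone, and each SMART-Seq2 well left out. Each method alone against frozen, the wells numbered 7 left out, the well number as a block and the SMART-Seq2 wells of 10 nuclei left out were chosen after seeing the data. The fits were tested on simulated counts.

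Nuclei were described without tests, with exact 95% Poisson and binomial (Clopper-Pearson) intervals and with counts thinned to 10000 (plates, also as the share expected over all draws, added after seeing the data) or 260 (droplets), using Python 3.11.15, numpy 2.4.6, pandas 2.3.3 and scipy 1.17.1. Doublets were not called, and the sources used here do not state the authors' filters on nuclei. The intervals and floors cover counting error only. The named genes are the 9 members, the genes of a list of 40 other astrocyte genes that passed a test, and the 5 genes with at least 100 UMIs most like the members over the droplet classes; genes of cell type markers are named where their counts are given. The members and lists were chosen with earlier results of these data known.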

Additional observations from a re-analysis of the deposited data

Results flagged for a closer look

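In SCRB-seq, 61 sets of 8 wells (a member, a treatment and a number of nuclei) were examined for 1 well far from the other 7, and 21 had one. Chance gives about 1 in 20 where values are normally distributed, which does not hold for sets with many wells at 0: in 3 of the 21 the other 7 wells were all at 0. Of these 21, 17 were wells of 10 nuclei.

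The glutamate transporters had 6 such wells. Slc1a2 stood at 1949 CPM in a mineral oil well of 10 nuclei (next well 799 CPM) and at 1900 CPM in a heated xylene well of 10 nuclei (next 384 CPM). Slc1a3 stood at 4699 CPM in mineral oil (next 898 CPM), 3383 CPM in heated xylene (next 488 CPM) and 5624 CPM in room-temperature xylene (next 943 CPM), all with 10 nuclei, and at 1682 CPM in room-temperature xylene with 100 nuclei (next 472 CPM). All 4 Slc1a3 wells are numbered 7. Slc4a4 stood at 1223 CPM in mineral oil (next 532 CPM) and at 568 CPM in frozen wells (next 213 CPM), both with 10 nuclei.

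Aqp4 stood at 257 CPM in room-temperature xylene (next 35.2 CPM), 294 CPM in heated xylene (next 37.4 CPM) and 62.4 CPM in mineral oil (next 0), all with 10 nuclei, and at 53.9 CPM in heated xylene with 100 nuclei (next 0). Gja1 stood at 371 CPM in heated xylene (next 69.1 CPM), 133 CPM in mineral oil (next 62.4 CPM) and 16.2 CPM in frozen wells (next 0), all with 10 nuclei. Plpp3 stood at 370 CPM in room-temperature xylene (next 86.9 CPM) and 587 CPM in heated xylene (next 247 CPM) with 10 nuclei. Aldoc stood at 662 CPM in mineral oil with 100 nuclei (next 377 CPM).

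Gpc5 stood at 4934 CPM in mineral oil with 10 nuclei (next 1559 CPM) and at 1152 CPM with 100 nuclei (next 885 CPM), and it was low at 592 CPM in a room-temperature xylene well of 10 nuclei (next 767 CPM). In the SCRB-seq table, which also lists human genes, the human rows held 4 counts for SLC1A2, 3 for SLC1A3, 42 for GPC5 and 32 for SLC4A4 over all wells, and these rows were used in no comparison.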

How the results depend on the processing

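The SCRB-seq wells share well numbers, and a fit with the well number as a replicate block, added after seeing the data, called 867 genes for FFPE minus frozen and 104, 22 and 107 for the pairs of methods, and it changed no call of a member. Over 1880 genes the deviations of same-numbered wells from their sets correlated at a mean r of 0.074 (-0.068 to 0.44 over 224 pairs of wells), against -0.010 for other numbers, and 48 of 64 wells were closest to their own number on average; among FFPE wells alone the mean was 0.11, 43 of 48 were closest to their own number, and the 15 pairs of wells numbered 7 lay between 0.12 and 0.39, which is a hint from the data and not from the design. In SMART-Seq2 the number of nuclei as a covariate is such a block. Slc1a3, Aldoc and Gpc5 kept their direction and their call in SCRB-seq, FFPE minus frozen, under every alternative that tested them. The number of genes called in that comparison (857) was 4785 with no filter, 2096 with a minimum of 3 counts and 478 in the wells of 10 nuclei alone. Between methods it was 3415, 511, 143 and 256 for mineral oil minus heated xylene (92), 2899, 248, 62 and 117 for heated minus room-temperature xylene (21, and 36 by DESeq2's Wald test) and 2925, 477, 201 and 178 for mineral oil against xylene at room temperature (111), with no filter, a minimum of 3 counts, the number of nuclei as covariate and wells of 100 nuclei alone, in that order. In SMART-Seq2 it was 630 by the Wald test and 772 without the wells of 10 nuclei (372 with all wells), and 162 to 469 with 1 well left out; the lowest was without the frozen well of 10 nuclei, and it was 187 and 174 without the frozen wells of 50 and 100 nuclei. For the pairs of methods in SMART-Seq2 (0 each), 16, 1 and 20 genes were called by the Wald test, 19, 5 and 16 with no filter, and 5, 0 and 25 without the wells of 10 nuclei, and 0 to 6 and 0 to 8 with 1 well left out for mineral oil against heated and against room-temperature xylene. In plates, the number of members with a larger share of FFPE nuclei was 1 unthinned, 0 at a minimum of 5 counts, 3 after thinning (3 expected over all draws) and 1 expected without the high-count nuclei.

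None of the values that changed sign was called. FFPE minus frozen, Slc1a2 was -0.41 with DESeq2 size factors and -0.41 by the Wald test in SCRB-seq, and -0.055 to 0.60 with 1 well left out in SMART-Seq2, the lowest without the heated xylene well of 10 nuclei. For mineral oil minus heated xylene, Slc1a2 was 0.25 and Slc4a4 0.11 in wells of 10 nuclei and Aldoc 0.13 in wells of 100. For heated minus room-temperature xylene, Slc1a2 was -0.10 in wells of 10 nuclei and -0.0043 without the wells numbered 7, Slc1a3 was 0.75 in wells of 100 nuclei 0.57 without the wells numbered 7 and 0.46 with the replicate block, and Slc4a4 was 0.072 in wells of 100. For mineral oil less room-temperature xylene, Slc1a2 was 0.14 in wells of 10 nuclei, Slc1a3 was -0.17 with no filter, -0.0093 with a minimum of 3 counts and -0.29 in wells of 10 nuclei, and Aldoc was -0.093 with the number of nuclei as covariate. The cause was not tested. The counts per well limit Aqp4, Gja1 and Plpp3, which did not pass the filter in SCRB-seq.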
